A study of Rattus norvegicus with 6 samples.

Results

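A set of 47 genes known for hearing loss or inner ear development was followed through RNA-seq of HEI-OC1, an established line of auditory cells that originated in the organ of Corti of the cochlea. The genes were taken by symbol from a count table of 18718 genes, in which 35 of the 47 had a row under their own symbol. One group of 3 libraries came from cells treated with a control siRNA, called control 1 to 3, and the other group of 3 from cells treated with an siRNA against Hnrnpd, called siHnrnpd 1 to 3. The product of Hnrnpd, AUF1, binds AU-rich elements in mRNA and affects how long the mRNA lasts. All libraries share the same line and, per the labels, the same culture medium and total RNA extraction. The samples are a single cultured line without the surrounding tissue of the cochlea. Rat is the organism in the labels, although HEI-OC1 is usually described as murine. Which species the reads came from was not tested, so levels compared between genes carry that limit.

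Sound is detected in the cochlea by hair cells, whose bundles of actin-filled stereocilia bend and open ion channels at their tips. Unconventional myosins, actin crosslinkers and the cadherins of the tip link build and hold this bundle. Supporting cells surround the hair cells, and gap junctions between them help to recycle potassium. Transcription factors and Notch signalling decide in the embryo which precursors become hair cells and which become supporting cells. Other hearing loss genes have general roles, such as charging transfer RNAs or digesting proteins in mitochondria, and are active in most cells.

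The libraries held 28984535 to 35842904 gene counts, and 12268 genes passed a filter on low counts and were tested. Hnrnpd itself (listed as Hnrpd) had 319, 303 and 269 CPM (counts scaled to library size) in controls 1 to 3 and 177, 200.2 and 183 CPM in siHnrnpd 1 to 3. The siHnrnpd mean was 62.8% of the control mean, with a log2 change of -0.67 (SE 0.082). Its p adjusted by Benjamini-Hochberg was 0.0426 in edgeR's quasi-likelihood test. The adjusted p was 0.0458 without siHnrnpd 2 and 0.0508 to 0.319 without any other library, with log2 values of -0.74 to -0.63 over the 6 fits. Across all genes tested, 10 were called at an adjusted p under 0.05. Separate cultures are not named for the replicates, and the p-values here reflect only library-to-library spread, possibly of technical origin. In bulk RNA, fewer cells of a type and less RNA per cell cannot be told apart.

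Of the 47 hearing genes, 25 were expressed, defined as a mean of at least 1 CPM over the 6 libraries. Another 10 were low, with at least 1 count in some library and a mean under 1 CPM. The remaining 12 had no row under their symbol. The share expressed under the gene's own symbol differed by role: all 10 genes of metabolism and organelles were expressed, 6 of 11 motor and actin genes, 8 of 13 developmental regulators, 1 of 8 hair bundle and synapse genes, and 0 of 5 junction and matrix genes. Genes without a row count as not expressed in these shares. They were 1 motor and actin gene, 4 developmental regulators, 4 hair bundle and synapse genes and 3 junction and matrix genes. The gene nearest above the minimum was Gata3, with a mean of 1.46 CPM, and the nearest below was Cdh23, with 0.668 CPM.

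A missing row does not show that a gene was silent. The count table lists genes with at least 1 count, but Myl6, the essential light chain of non-muscle myosin and active in most cells, had no row either. Searching RefSeq synonyms in a gene table of the rat assembly GRCr8 found rows for 2 of the 12 genes. Whrn, which encodes the stereocilia scaffold whirlin, matched a row listed as Dfnb31, with 11.2, 10.8 and 13.7 CPM in controls 1 to 3 and 12.1, 11.1 and 12.7 CPM in siHnrnpd 1 to 3. Its groups overlapped, and its log2 value was 0.0082 (95% interval -0.26 to 0.28, edgeR adjusted p = 0.990). Myo15a, the motor that carries whirlin to stereocilia tips, matched a row listed as Myo15 with at most 5 counts in a library. No row was found for Coch, Pcdh15, Ush1c, Pou4f3, Atoh1, Sox2, Sox10, Gjb2, Gjb6 or Tmc1.

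**Figure D1:**
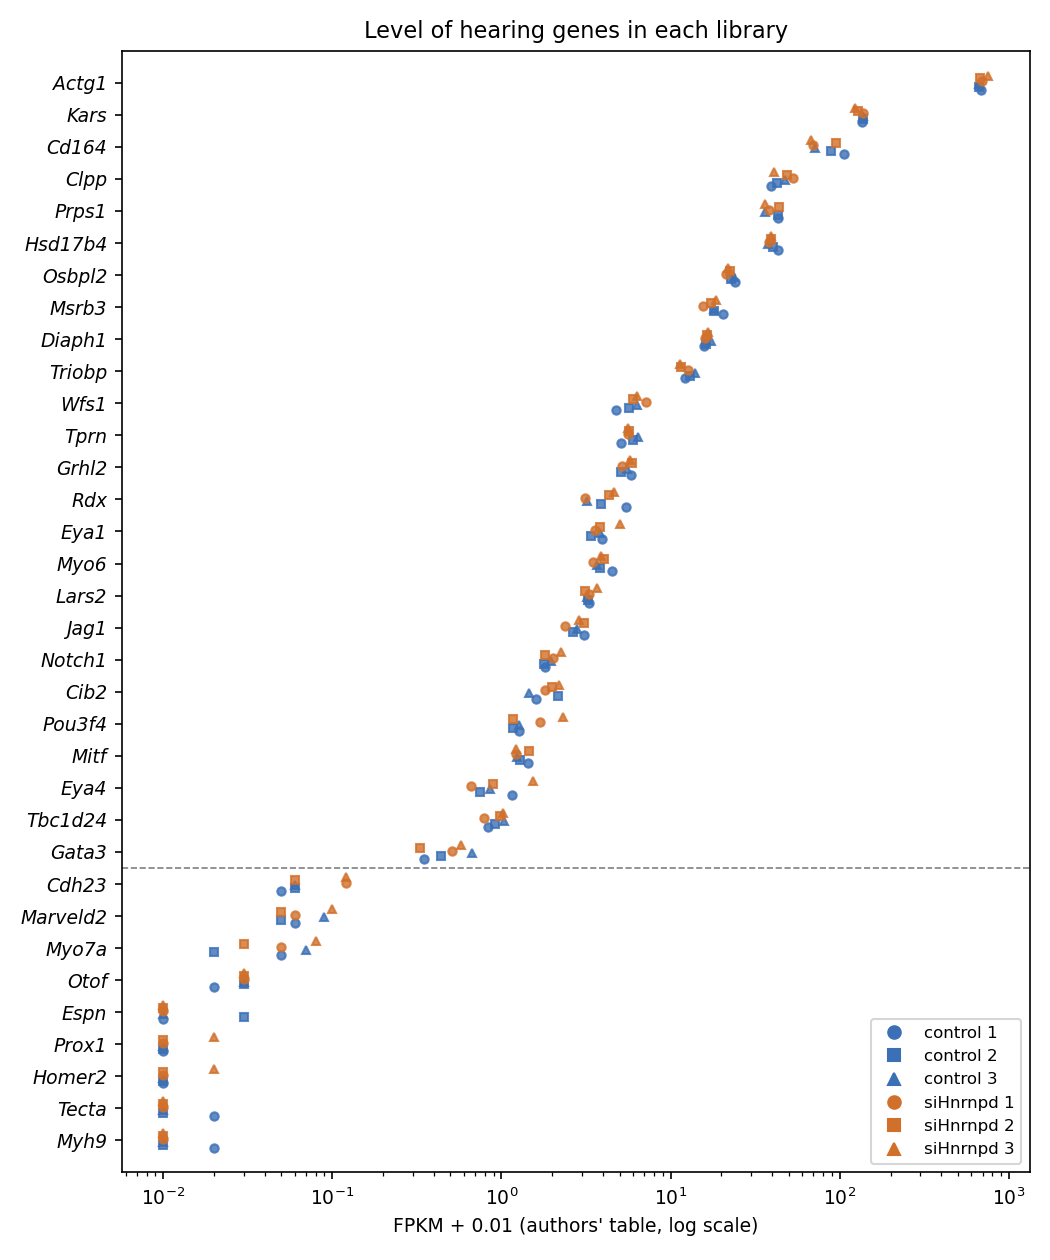
FPKM of 34 hearing genes in each library on a log axis (0.01 was added so that zeros can be drawn), with circles, squares and triangles for replicates 1, 2 and 3 in control (blue) and siHnrnpd (orange). The 25 genes above the dashed line were expressed and run from Gata3 at a mean FPKM of 0.47 to Actg1 at 691, while the 9 below it stayed at 0.11 FPKM or less in every library; Myh14 has no FPKM value.

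Levels were compared between genes in the authors' FPKM, which divides by gene length. Actg1, which encodes the cytoplasmic gamma actin of stereocilia and of the cytoskeleton in general, had the highest mean FPKM of the expressed hearing genes, 691 ± 34.5 (SD over the 6 libraries), and rank 159 of 18628 genes. Kars, the lysyl-tRNA synthetase, followed at 133 ± 5.84 FPKM, and Cd164, a sialomucin of the cell surface and lysosome, at 83.0 ± 15.7 FPKM. The ranges of these 3 genes over the libraries did not overlap. Clpp, the mitochondrial protease subunit, at 45.5 ± 5.27 FPKM, Prps1, a phosphoribosyl pyrophosphate synthetase, at 40.1 ± 3.70 FPKM, and Hsd17b4, a peroxisomal beta-oxidation enzyme, at 39.6 ± 1.98 FPKM had overlapping ranges over the libraries. The mean of Clpp lay above every library of the other two. The median of the 25 genes was 5.55 FPKM, the level of Grhl2. Gata3 at 0.470 ± 0.133, Tbc1d24 at 0.920 ± 0.102 and Eya4 at 0.965 ± 0.323 FPKM were the lowest, and the last pair were within each other's spread.

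The reduction of Hnrnpd was compared with control in the 25 expressed genes to ask whether hearing gene transcripts change with it. No hearing gene was called higher or lower: 0 of 25 passed an adjusted p under 0.05 by edgeR, against 0.0815% of all genes tested, 0.0245% upward and 0.0571% downward. At an unadjusted p under 0.05 the count was also 0 of 25, where 11.0% of all genes tested passed, 5.84% higher and 5.20% lower. DESeq2 and limma-voom likewise called 0 of the 25, with 0 at an unadjusted p under 0.05 by each, and the share of genes called by DESeq2 was 1.41%. The log2 values of the 25 genes ran from -0.21 (Cd164) to 0.46 (Pou3f4), with 15 negative, 10 positive and a median of -0.040, against a median of 0.0054 over all genes tested. The edgeR adjusted p-values of the 25 genes were 0.5004 to 0.9747.

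These values bound the changes rather than show that there was none. For all 25 genes the 95% interval of the log2 change lay within a 2-fold change in either direction, and for 21 of them within a 1.5-fold change. Among the 10971 tested genes that averaged 1 CPM or more, 97.3% and 85.3% had intervals that narrow. The 4 genes with wider intervals were Pou3f4, Eya4, Gata3 and Cib2, all under 4 CPM on average. In 21 of the 25 genes the spread between the highest and lowest control library was larger than the difference between the group means, as in 78.4% of those 10971 genes.

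**Figure D2:**
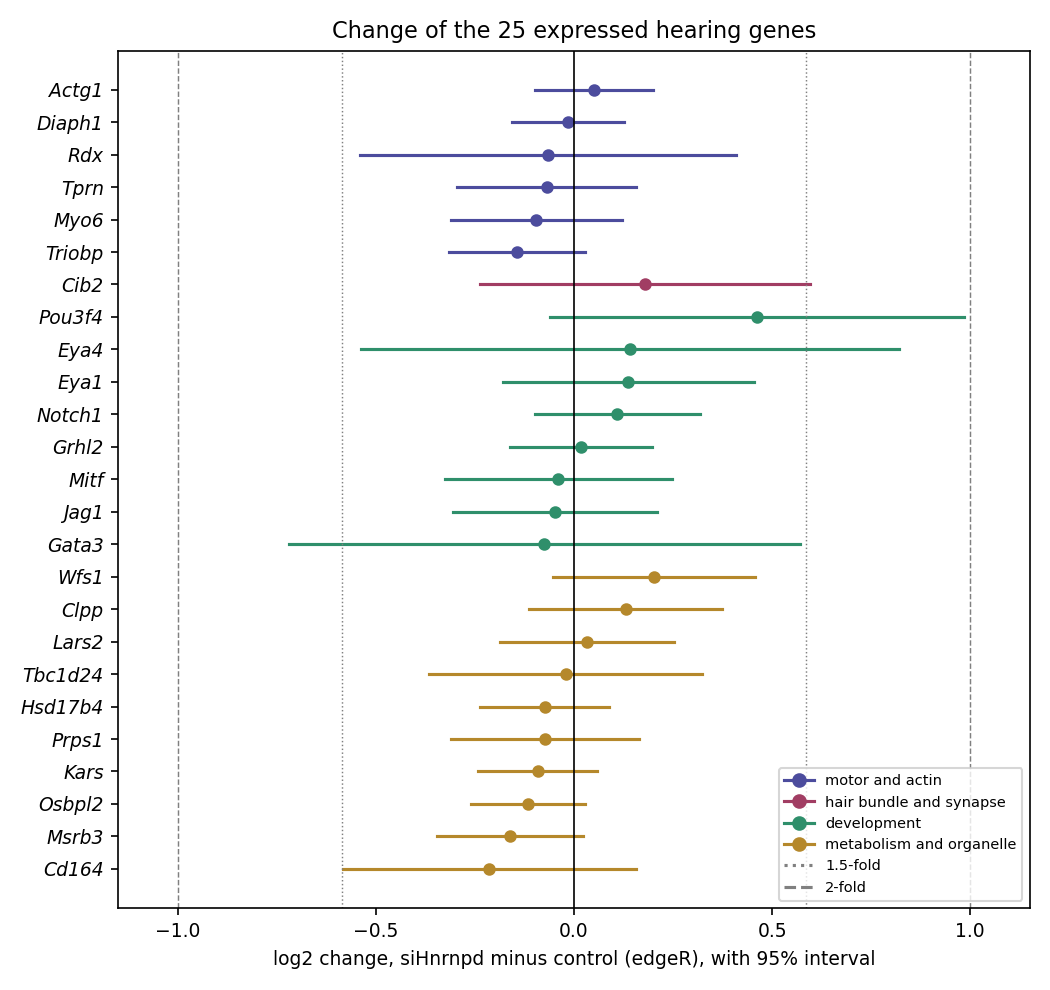
Log2 change (siHnrnpd minus control, x axis) of the 25 expressed hearing genes with its 95% interval from the edgeR fit, coloured by role, with dotted lines at a 1.5-fold and dashed lines at a 2-fold change. Every interval includes 0 and stays within the 2-fold lines, and the interval of Pou3f4, from -0.061 to 0.99, reaches nearest to them.

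Among motors and actin regulators, Myo6 encodes the myosin that walks to the minus end of actin and anchors the base of stereocilia. It had 41.2, 35.7 and 33.1 CPM in controls 1 to 3 and 31.5, 37.0 and 34.4 CPM in siHnrnpd 1 to 3. Control 1 was the highest library and siHnrnpd 1 the lowest, and the groups overlapped (log2 value -0.095, SE 0.096, edgeR adjusted p = 0.759). The log2 value was -0.015 without control 1, -0.037 without siHnrnpd 1, -0.15 without siHnrnpd 2 and -0.16 without control 3. Actg1 had 911, 897 and 874 CPM in the controls and 910, 893 and 976 CPM in siHnrnpd. Only siHnrnpd 3 lay above the controls, and the log2 value was 0.051 with an interval of -0.097 to 0.20. Actg1 encodes a protein nearly identical to that of Actb, which had a mean of 1666 FPKM. Whether reads were split between these genes was not tested.

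Diaph1, a formin that elongates actin filaments, was among the steadiest members, averaging 108 ± 4.24 CPM over the controls and 106 ± 1.84 CPM over siHnrnpd 1 to 3 (SD, n = 3 each). Its log2 value was -0.015, with the smallest SE of the 25 genes, 0.063. Triobp, which bundles actin into the rootlets of stereocilia, had 96.7, 105 and 109.9 CPM in the controls and 101, 92.4 and 88.7 CPM in siHnrnpd. Its siHnrnpd 2 and 3 lay below all controls and siHnrnpd 1 lay among them (log2 value -0.14, SE 0.077, edgeR adjusted p = 0.519). Rdx encodes radixin, which links actin to the membrane of stereocilia. It had 11.6, 8.30 and 6.61 CPM in the controls and 6.57, 9.21 and 9.46 CPM in siHnrnpd, so the highest control was 1.75 times the lowest. Tprn, the stereocilia base protein taperin, averaged 18.7 ± 2.12 CPM over the controls and 17.9 ± 0.471 CPM over siHnrnpd 1 to 3 (SD, n = 3 each).

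The low members of this group included Myo7a, the motor of hair cells that holds the tip link under tension, whose counts were 9, 2 and 16 in the control libraries and 12, 6 and 18 in the siHnrnpd libraries. Espn, the actin crosslinker espin, had 2 counts in control 2 and 0 in every other library. Myh9 and Myh14, heavy chains of non-muscle myosin, had at most 2 and 1 counts in a library, while Myh10, another such heavy chain, had 66.3 to 73.0 CPM. A library with 0 counts allows up to 3 counts, which is 0.0830 to 0.103 CPM depending on the library, for counting error only. Myh9 is active in most cultured cells, and why its row was nearly empty was not tested.

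The actin and myosin genes outside the set were given by a list of 32 partners, of which 31 matched and 30 were tested. EdgeR called 0 of them, with 1 up and 0 down on an unadjusted p under 0.05 and a median log2 value of 0.082. Over all genes tested, 0.0815% were called, and 5.84% were up and 5.20% down at that p. Of the 30 partners tested, 5 did not overlap between the groups, against 17.0% of all genes tested. Fscn1, the filament bundler fascin, had 27.2, 28.1 and 35.3 CPM in the controls and 43.1, 38.5 and 44.5 CPM in siHnrnpd, with no overlap. The log2 value, 0.47, missed the threshold with edgeR (adjusted p = 0.176) and passed with DESeq2 (adjusted p = 0.0110) and with edgeR without a filter on low counts (adjusted p = 0.0242). DESeq2 called 1.41% of all genes, against 0.0815% by edgeR, and edgeR without the filter also called more genes than with it. The next genes by p were Myo9b and Myo1e, with log2 values of 0.13 and 0.21 and overlapping groups. Without siHnrnpd 3 the median of the partner list was -0.0023.

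Of the hair bundle and synapse genes, only Cib2 was expressed under its own symbol. It encodes a calcium-binding partner of the mechanotransduction channel and had 2.65, 3.62 and 2.35 CPM in the controls and 2.97, 3.29 and 3.49 CPM in siHnrnpd. Control 2 was the highest library and the groups overlapped, with an interval of -0.24 to 0.59 for the log2 change. Cdh23, the cadherin at the upper end of the tip link, had 13, 15 and 19 counts in the controls and 37, 15 and 34 in siHnrnpd. Its siHnrnpd 1 and 3 were higher than the controls and siHnrnpd 2 was not, and at under 1 CPM it was left out of the comparison. Otof, the calcium sensor of hair cell vesicle release, had 2 to 7 counts in a library, and Homer2, a scaffold of stereocilia tips, had 1 count in all.

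The junction and matrix genes were nearly empty. Marveld2, which encodes tricellulin of the corners between epithelial cells, had 4 to 9 counts in a library, and Tecta, a protein of the tectorial membrane, had 2 counts in control 1 and 0 in the others. The gap junction genes Gjb2 and Gjb6 and the cochlin gene Coch had no row. Grhl2, a transcription factor that maintains epithelia, stood apart from other epithelial markers: it had 37.0, 32.6 and 34.5 CPM in the controls and 32.6, 37.5 and 35.3 CPM in siHnrnpd. On the list of 10 epithelial markers it was the only expressed gene of 6 matched, while Epcam, Cdh1 and Esrp1 had at most 2 counts and Krt8 at most 7 counts in a library. Its log2 value was 0.017 with an interval of -0.16 to 0.20.

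Among the developmental regulators, Eya1 and Eya4 encode coactivators that work with DNA-binding transcription factors in the otic placode. Eya1 had 8.34, 7.31 and 7.94 CPM in the controls and 7.54, 8.06 and 10.35 CPM in siHnrnpd. Eya4 had 2.38, 1.57 and 1.74 CPM in the controls and 1.34, 1.84 and 3.09 CPM in siHnrnpd. For both genes siHnrnpd 3 was the highest of the 6 libraries and the other siHnrnpd libraries lay among or below the controls. The log2 value of Eya1 was 0.14 with all libraries and -0.022 without siHnrnpd 3, and that of Eya4 was 0.14 and -0.26 (edgeR adjusted p = 0.763 to 0.969 over these fits).

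Pou3f4, a factor of the otic mesenchyme whose loss causes X-linked deafness, had 1.90, 1.76 and 1.85 CPM in the controls and 2.51, 1.75 and 3.34 CPM in siHnrnpd. Here siHnrnpd 1 and 3 lay above the controls and siHnrnpd 2 lay just below them. Its log2 value of 0.46 was the largest of the 25 genes in either direction and did not pass (SE 0.23, edgeR adjusted p = 0.5004), and it was 0.21 without siHnrnpd 3. The list of 12 fibroblast and mesenchyme markers, to which Pou3f4 belongs, summed to 4271 to 4772 CPM in the controls and 4631 to 5685 CPM in siHnrnpd. Col1a1 and Fn1 weighed most in this sum, averaging 2093 and 1288 CPM in the controls and 2601 and 1420 CPM in siHnrnpd. By edgeR 0 of the list's 10 tested genes were called. Of these 10, 8 had positive log2 values and 2 were higher at an unadjusted p under 0.05. Over all genes tested, 0.0815% were called, 51.7% were positive and 5.84% were higher at that p. The list's median log2 value was 0.081, and -0.012 without siHnrnpd 3. Its part in the values of Pou3f4 was not tested.

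Gata3, needed for the prosensory region, had 1.07, 1.38 and 2.02 CPM in the controls and 1.54, 0.996 and 1.75 CPM in siHnrnpd. Its highest and lowest controls differed 1.89-fold, the widest control range of the 25 genes, and its interval of -0.72 to 0.57 was correspondingly wide. Mitf, the regulator of melanocytes in the stria vascularis, averaged 7.97 ± 0.649 CPM over the controls and 7.74 ± 0.902 CPM over siHnrnpd 1 to 3 (SD, n = 3 each). Pmel, a melanosome gene, had 2.80 ± 0.305 FPKM beside 1.30 ± 0.105 FPKM of Mitf (SD over the 6 libraries), while Tyrp1 had at most 1 count and Sox10, Tyr and Dct had no row. Prox1, a factor of supporting cells, had 1 count in control 1, 2 in siHnrnpd 3 and 0 in the other libraries.

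Jag1, a Notch ligand of the prosensory region, had 20.1, 17.6 and 17.9 CPM in the controls and 15.3, 20.2 and 18.2 CPM in siHnrnpd. Its lowest and highest libraries were both siHnrnpd libraries, and the log2 value was -0.048 with an interval of -0.31 to 0.21. The receptor gene Notch1 had 20.2, 20.2 and 21.6 CPM in the controls and 22.3, 20.0 and 24.5 CPM in siHnrnpd. Its siHnrnpd 1 and 3 lay above the controls, and the log2 value of 0.11 (SE 0.093, edgeR adjusted p = 0.702) was 0.026 without siHnrnpd 3.

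On a list of 27 other Notch pathway genes, 19 were tested. By edgeR 0 were called, with 3 up and 0 down on an unadjusted p under 0.05, and 4 did not overlap between the groups, with a median log2 value of 0.036. Over all genes tested, 0.0815% were called, 5.84% were up and 5.20% down at that p, and 17.0% did not overlap. Rbpj, the DNA-binding partner of the Notch intracellular domain, had 95.5, 89.6 and 86.0 CPM in the controls and 99.2, 111 and 116 CPM in siHnrnpd. Its log2 value was 0.27 (edgeR adjusted p = 0.295). Rfng and Lfng, glycosyltransferases that tune which ligands a Notch receptor answers, had log2 values of 0.23 and 0.27 (edgeR adjusted p = 0.367 and 0.441). Each of these 3 genes was higher in all siHnrnpd libraries than in all controls. Hes1, a direct Notch target, had 28.0 to 32.7 CPM in the controls and 30.5, 28.5 and 43.7 CPM in siHnrnpd, with overlap.

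Partner genes of the Eya proteins were also listed: of 11, 7 matched and were tested, and edgeR called 0, with 0 up and 1 down on an unadjusted p under 0.05. Over all genes tested, 0.0815% were called, with 5.84% up and 5.20% down at that p. Pax8 and Six2, transcription factors on that list, had log2 values of -0.23 and 0.36 and overlapping groups. The median of the partner list was 0.035, and it was negative without control 1 (-0.016), siHnrnpd 1 (-0.086) or siHnrnpd 3 (-0.035).

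**Figure D3:**
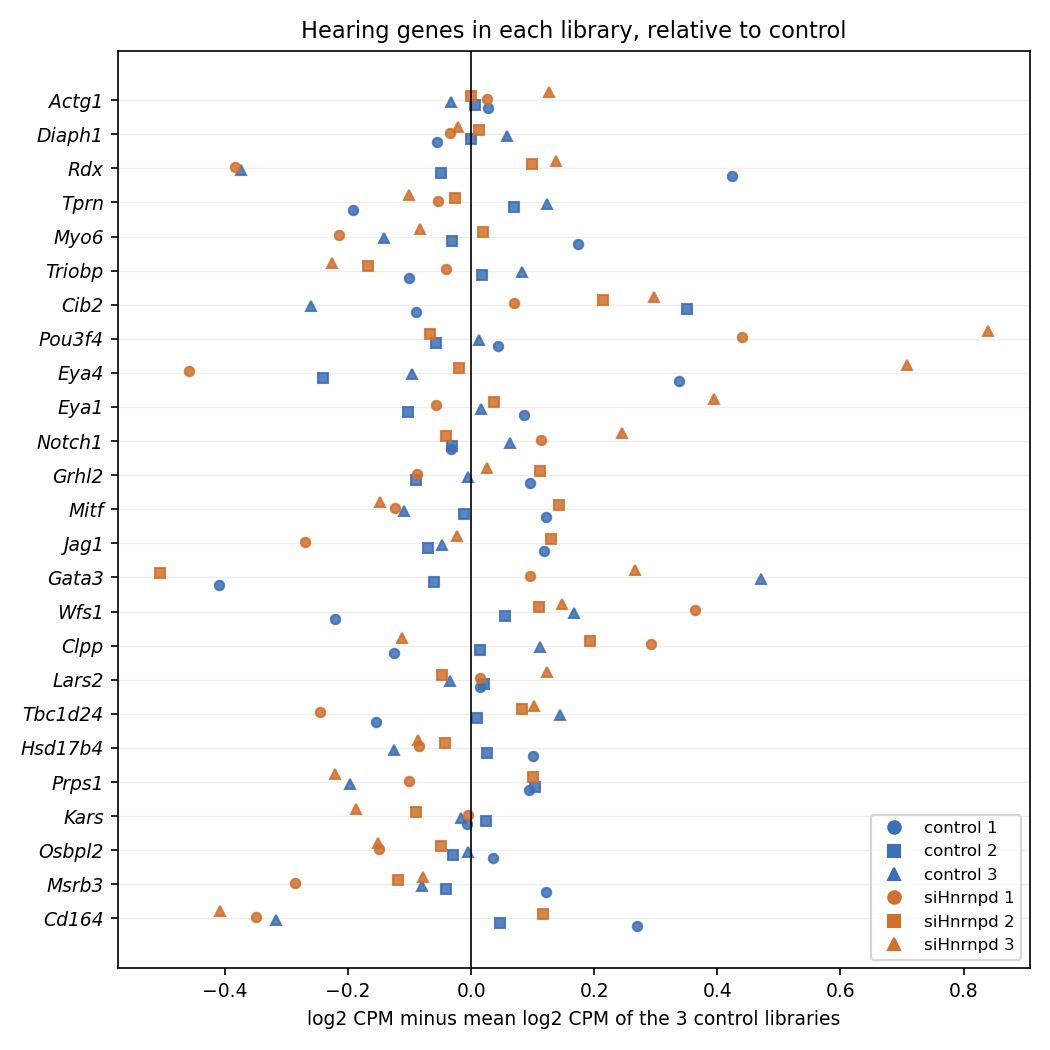
Log2 CPM of the 25 expressed hearing genes in each library minus the mean log2 CPM of the 3 controls (x axis), with blue for control, orange for siHnrnpd and a marker shape for each replicate number. Points of both colours lie on both sides of 0 for most genes, siHnrnpd 3 lies far right for Pou3f4, Eya4 and Eya1, and the colours separate only for Osbpl2.

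The genes of metabolism and organelles held the member whose groups did not overlap. Osbpl2, an oxysterol-binding protein that moves lipids between membranes, had 76.7, 73.4 and 74.6 CPM in controls 1 to 3 and 67.5, 72.4 and 67.4 CPM in siHnrnpd 1 to 3. Its log2 value was -0.12 with an interval of -0.26 to 0.029 and did not pass (edgeR adjusted p = 0.541). It was 1 of 25 expressed genes without overlap, against 17.0% of all genes tested (8.42% higher, 8.57% lower) and 17.3% of those that averaged 1 CPM or more. At 1 of 25, the share among the hearing genes was not above that background. Leaving out a library gave log2 values of -0.15 to -0.099 for it.

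Cd164 had the largest SD in CPM of the 25 genes in each group, with 356.5, 305 and 237 CPM in the controls and 232, 320.5 and 223 CPM in siHnrnpd. Control 3 lay with siHnrnpd 1 and 3 at the low end, and siHnrnpd 2 lay with controls 1 and 2. Its log2 value was -0.21 (SE 0.17, edgeR adjusted p = 0.669), and it ran from -0.40 without siHnrnpd 2 to -0.081 without control 1. Prps1 was split the same way, with 101, 102 and 82.6 CPM in the controls and 88.4, 102 and 81.2 CPM in siHnrnpd.

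Msrb3, a methionine sulfoxide reductase needed for stereocilia integrity, had 90.7, 81.0 and 78.8 CPM in the controls and 68.3, 76.8 and 78.9 CPM in siHnrnpd. The groups overlapped by the narrow gap between control 3 and siHnrnpd 3, and the log2 value was -0.16 (SE 0.082, edgeR adjusted p = 0.504). Wfs1 encodes wolframin, a protein of the endoplasmic reticulum, and had 19.9, 24.1 and 26.1 CPM in the controls and 29.9, 25.1 and 25.7 CPM in siHnrnpd. Control 1 was the lowest and siHnrnpd 1 the highest library. Its log2 value of 0.20 (SE 0.11, edgeR adjusted p = 0.545) was 0.088 without control 1.

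**Figure D4:**
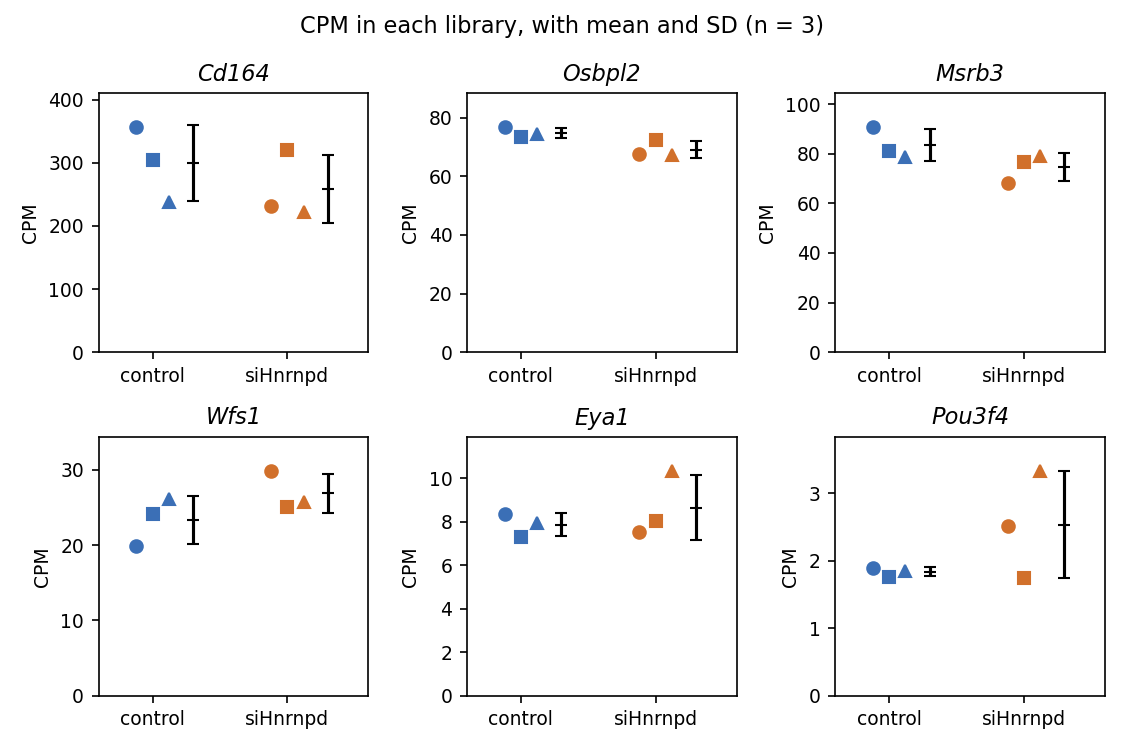
CPM (y axis, from 0) of Cd164, Osbpl2, Msrb3, Wfs1, Eya1 and Pou3f4 in control (blue) and siHnrnpd (orange), with a circle, square and triangle for replicates 1, 2 and 3 and the mean with SD (n = 3) beside them. Osbpl2 shows no overlap between 73.4 and 72.4 CPM, while in the other 5 genes at least 1 library of a group lies within or across the range of the other.

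Kars had 342, 349.6 and 340.1 CPM in the controls and 343, 323 and 302 CPM in siHnrnpd, with siHnrnpd 1 among the controls and the other two below (log2 value -0.092, interval -0.24 to 0.059). Lars2, the mitochondrial leucyl-tRNA synthetase, averaged 11.9 ± 0.252 CPM over the controls and 12.2 ± 0.737 CPM over siHnrnpd 1 to 3 (SD, n = 3 each). On a list of 35 other aminoacyl-tRNA synthetases, 33 were tested, 0 were called by edgeR, with 1 up and 0 down on an unadjusted p under 0.05. That gene was Ears2, the mitochondrial glutamyl-tRNA synthetase, at 3.72, 3.53 and 3.24 CPM in the controls and 4.97, 5.01 and 4.41 CPM in siHnrnpd (log2 value 0.46, edgeR adjusted p = 0.295). Iars2 and Eprs1 had log2 values of -0.14 and 0.13, each without overlap between the groups. Of the 33 synthetase genes tested, 4 did not overlap, against 17.0% of all genes tested. At an unadjusted p under 0.05 by edgeR, 5.84% of all genes tested were up and 5.20% down, and 0.0815% were called. The list median was 0.013, and it was negative without control 3 (-0.0035) or siHnrnpd 2 (-0.0043) and 0.031 without control 1.

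Clpp had 38.0, 41.8 and 44.8 CPM in the controls and 50.8, 47.4 and 38.3 CPM in siHnrnpd, where siHnrnpd 1 and 2 lay above the controls and siHnrnpd 3 near the lowest of them (log2 value 0.13, interval -0.11 to 0.37). Leaving out siHnrnpd 1 gave 0.045, leaving out control 1 gave 0.059 and leaving out siHnrnpd 3 gave 0.23 on the log2 scale. Hsd17b4 averaged 127 ± 9.96 CPM over the controls and 120 ± 2.10 CPM over siHnrnpd 1 to 3 (SD, n = 3 each). Tbc1d24, a regulator of vesicle traffic, had 4.09 ± 0.429 and 4.04 ± 0.531 CPM (SD, n = 3 each).

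A further list of 117 hearing loss genes outside the set placed these values in a wider group. Of its genes, 98 matched, 55 were expressed, 43 were low and 63 were tested. By edgeR 0 were called, with 3 up and 6 down on an unadjusted p under 0.05, and 14 did not overlap between the groups. Over all genes tested, 0.0815% were called, 11.0% passed that p (5.84% up and 5.20% down) and 17.0% did not overlap. The median log2 value was 0.0011, with 32 positive and 31 negative, and it ran from -0.048 (without siHnrnpd 3) to 0.023 over the alternatives.

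The smallest p-values on that list belonged to Abhd12, Mgp and Rmnd1. Abhd12, a lysophosphatidylserine lipase, had 256, 275 and 259 CPM in the controls and 232, 212 and 206 CPM in siHnrnpd. The log2 value, -0.28, missed the threshold with edgeR (adjusted p = 0.209) and passed with DESeq2 (adjusted p = 0.0359). DESeq2 called 1.41% of all genes, against 0.0815% by edgeR. Mgp, the matrix Gla protein that inhibits calcification, had 78.0, 85.3 and 87.0 CPM in the controls and 72.4, 52.4 and 66.5 CPM in siHnrnpd (log2 value -0.39, edgeR adjusted p = 0.288). For Rmnd1, a mitochondrial protein needed for translation there, the log2 value was -0.19, with an edgeR adjusted p of 0.341. In each of these 3 genes the groups did not overlap.

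The auditory label of the line was compared with cell type markers. Of 18 hair cell markers, 7 of which are in the set, 11 matched a row, and Myo6 was the only one that averaged 1 CPM or more. Gfi1, Slc26a5, Slc17a8, Calb2, Chrna10 and Lhx3 had at most 5 counts in a library, and Pou4f3, Atoh1, Tmc1, Chrna9, Strc, Cabp2 and Barhl1 had no row. The smallest p on the list was that of Ocm, the calcium buffer oncomodulin (matched to a row listed as Ocm2), with 16, 18 and 24 counts in the controls and 16, 8 and 9 in siHnrnpd (log2 value -0.87, edgeR adjusted p = 0.381). The list summed to 34.7 to 42.3 CPM in the controls and 32.7 to 37.7 CPM in siHnrnpd. Nearly all of this was Myo6, which alone had 33.1 to 41.2 and 31.5 to 37.0 CPM. Of 16 supporting cell and prosensory markers, 11 matched and 5 were expressed: Jag1, Lfng, Hey2, Fgfr3 and Cdkn1b. By p, Fgfr3 came before Lfng and Hey2, with 2.52, 2.05 and 2.46 CPM in the controls and 2.86, 3.29 and 3.58 CPM in siHnrnpd (log2 value 0.47, edgeR adjusted p = 0.347), and Hey2 had a log2 value of -0.14 with overlap. Of the 6 tested genes on this list, 3 had positive and 3 negative log2 values. Lgr5, too low to be tested, had 10, 8 and 7 counts in the controls and 5, 3 and 2 in siHnrnpd. The list summed to 104 to 118 CPM in the controls and 92.9 to 118 CPM in siHnrnpd. Cdkn1b weighed most in it, with 66.98 to 79.87 and 57.55 to 77.55 CPM. The 12 mesenchymal markers were uneven in FPKM. Col1a1 at 346 ± 54.1, Thy1 at 251 ± 22.8, Fn1 at 138 ± 21.9 and Col3a1 at 107 ± 4.97 FPKM were the highest (SD over the 6 libraries). Twist1, Tbx18, Pdgfra, Lum and Pou3f4 lay between 1.47 and 29.95 FPKM. Col1a2 had 0.625, Dcn 0.068 and Postn 0.040 FPKM. In the mesenchymal list Col1a1 had the smallest p, at a log2 value of 0.31 (edgeR adjusted p = 0.322). Neuron markers had 1 expressed gene of 6 matched, Prph, at a log2 value of 0.27 (edgeR adjusted p = 0.431) and list sums of 20.1 to 27.0 CPM in the controls and 26.9 to 30.7 CPM in siHnrnpd. These sums were nearly all Prph, which alone had 19.8 to 26.4 CPM in the controls and 26.6 to 30.4 CPM in siHnrnpd. Macrophage markers had 1 of 6, Cd68, with sums of 3.01 to 3.38 and 2.80 to 3.71 CPM, and Aif1, first by p, had a log2 value of 0.35. Schwann cell and melanocyte markers had 2 of 7, Mitf and Pmel, with sums of 16.7 to 17.7 and 15.6 to 17.9 CPM. EdgeR, DESeq2 and limma-voom each called 0 genes of any marker list. Each list held 1 to 10 tested genes, and edgeR and DESeq2 called 0.0815% and 1.41% of all genes. At those shares 0 calls do not show that the markers were unchanged. Over the 5 lists outside the markers, DESeq2 called 1 of 30 tested actin and myosin partners, Fscn1, and 1 of 63 tested further hearing genes, Abhd12. Its share over all genes was 1.41%, and limma-voom called 0 on these lists.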

How the data were processed

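Per the submitters' processing notes, reads were aligned with TopHat2 to mRatBN7.2; how reads were counted, whether by strand and with which gene models, is not given in the sources used here. Reads of overlapping or antisense genes may therefore be mixed. The deposited count table has 1 raw read count for each of 18718 genes and library, and 0 value columns stayed without a sample. The deposited FPKM table holds values computed by the authors for 18628 genes. Columns were matched by siRNA name and replicate number.

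The test was the quasi-likelihood test of edgeR 4.0.16 (R 4.3.3) after filterByExpr and TMM scaling. The model held the siRNA group alone, and p-values were adjusted by Benjamini-Hochberg over 12268 genes. CPM uses TMM-scaled library sizes. An SE is the log2 change divided by the square root of F, and the 95% interval uses the fit's degrees of freedom. On counts simulated for this comparison, with 12183 genes in the step, 95.3% of intervals held the true change, and edgeR recovered 68% of 50 genes changed 1.5-fold and 82% of 50 changed 2-fold. The simulation held more changed genes than were called in the data, so these shares do not give its power there.

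The members and lists were chosen with earlier results of these data known. All members are accounted for. CPM of every library is given for expressed members with an unadjusted p under 0.05 or no overlap. It is also given for the 5 with the highest mean FPKM and for Myo6, Jag1, Notch1, Gata3 and Eya1. For Myo7a, a low member, the counts of every library are given. Of each other list, up to 3 genes with the smallest p are named, except that some items are not reported here. Values beyond that rule, for Triobp, Rdx, Cib2, Grhl2, Eya4, Pou3f4, Msrb3, Wfs1, Cdh23, Hes1, Myh10 and several markers, were added after their values were seen. Of 288 distinct genes on the other lists, 218 matched by symbol, 21 through RefSeq synonyms and 49 not at all. Alternatives were DESeq2 1.42.0, limma-voom (limma 3.58.1), RLE and upper-quartile scaling, no filter, at least 50 counts in 3 libraries, a replicate block, and fits that leave out 1 library each. The FPKM alternatives used limma on log2(FPKM + 1), with a minimum mean of 1 FPKM or none, and on log2(FPKM + 0.1) with that minimum. Adding 1 understates changes of low genes more than adding 0.1 does. In each of the 15 library pairs, counts differed beyond sampling noise.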

Additional observations from a re-analysis of the deposited data

How the results depend on the processing

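No hearing gene was called by any of the 16 alternatives run, and the lowest adjusted p over them was 0.294. All of them refit the same libraries. Several called few or 0 genes over the whole table, so 0 of 25 carries little weight there, while DESeq2 called 1.41% of all genes. Of 394 values of the 25 expressed genes under the alternatives, 374 kept their sign and 20 changed it; 15 genes kept it throughout. The count of hearing genes without overlap, 1 in the main comparison, was 2 with size factors (RLE), where Msrb3 joined Osbpl2, and 2 to 5 when a library was left out. Groups with fewer libraries fail to overlap more readily in any gene. The counts with a library left out therefore cannot be set against the 17.0% over all genes tested, which used every library. The median log2 value of the 25 genes was -0.071 to 0.041 when a library was left out.

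Diaph1 was 0.0018 on log2(FPKM + 1), with or without a minimum FPKM, and 0.0019 on log2(FPKM + 0.1), against -0.015. Leaving out each library in turn gave log2 values of -0.054 to 0.014 for Diaph1, -0.24 to 0.16 for Rdx, -0.14 to 0.054 for Jag1, -0.14 to 0.012 for Mitf, -0.032 to 0.068 for Grhl2, -0.27 to 0.22 for Gata3, -0.10 to 0.085 for Tbc1d24, -0.022 to 0.23 for Eya1, -0.26 to 0.38 for Eya4, -0.027 to 0.070 for Lars2, -0.054 to 0.12 for Whrn, -0.091 to 0.95 for Myo7a, -0.23 to 0.59 for Aif1 and -0.15 to 0.024 for Pmel. Myo7a and Aif1 averaged only 0.315 and 0.674 CPM, below the minimum for expressed genes. With all libraries their log2 values were 0.36 (SE 0.59) and 0.35 (SE 0.40). Over all alternatives, Actg1 ran from 0.0015 to 0.077, Cib2 from 0.047 to 0.38, Hsd17b4 from -0.13 to -0.034, Kars from -0.14 to -0.058, Prps1 from -0.17 to -0.013, Tprn from -0.17 to -0.0058 and Msrb3 from -0.21 to -0.10.

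Over all genes the count of 10 calls became 6 with upper-quartile scaling, 162 with DESeq2, 147 with no filter, 0 with limma on log2(FPKM + 1) with or without a minimum, 5 on log2(FPKM + 0.1), and 0 to 14 when a library was left out. With the replicate number as a block it was 0, and the adjusted p of Hnrnpd was 0.0873; on log2(FPKM + 1) it was 0.0508 with a minimum FPKM and 0.137 without. Whether the numbers pair the libraries is not given in the labels. Deviations from the group means of same-numbered libraries correlated at -0.26, 0.14 and 0.10 over 12268 genes. Differently numbered libraries ran from -0.33 (control 3 and siHnrnpd 2) to 0.23 (control 1 and siHnrnpd 2). Such deviations cancel out within each group, so these correlations cannot settle pairing. The number of expressed hearing genes was 26 at a minimum of 0.5 CPM, 22 at 1 FPKM, 24 at 1 CPM in every library, 26 with synonyms, and 25 with each library left out. The causes were not tested. Gata3, Eya4, Pou3f4 and Cib2, whose intervals reach past a 1.5-fold change, all averaged under 4 CPM.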

Other observations

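Level differences between genes that usually go together were seen in these tables. Col1a1 had 346 ± 54.1 FPKM and Col1a2, whose product joins it in type I collagen, 0.625 ± 0.0745 FPKM (SD over the 6 libraries). Myh9 had at most 2 counts in a library beside 66.3 to 73.0 CPM of Myh10. Col3a1 had 107 ± 4.97 FPKM, while Dcn, another gene of fibroblasts, had at most 9 counts in a library. Why these rows were low was not tested, and a low or missing row of a hearing gene should be read beside them.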
